A study of Homo sapiens with 10 samples.

Results

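In HepG2 cells exposed to tunicamycin, 4 of 8 genes for enzymes that make asparagine, aspartate, proline, cysteine, alanine and glutamine had more RNA than in untreated cells, and none of the 8 was called lower. Of all genes tested, 17.6% were called higher and 16.6% lower at the same threshold. The 8 genes are ASNS, GOT1, ALDH18A1, PYCR1, CBS, CTH, GPT2 and GLUL. They were picked by name as 8 of the 32738 genes in the count table. The rule uses no measured value, but the set was drawn up with earlier results of these data known. All 8 passed the filter on low counts, as did 12733 genes in all. HepG2 is a human hepatoma line, and tunicamycin blocks N-linked glycosylation, so that unglycosylated proteins pile up in the endoplasmic reticulum. Cells were left in regular growth medium or kept for 17 h in medium with 2 µg/ml tunicamycin, and RNA was sequenced from the 3′ ends of transcripts in 5 libraries per condition. The 5 replicates were run on separate days, so an untreated and a tunicamycin library with the same replicate number share a day. All 10 libraries come from 1 cell line at 1 dose and 1 time, so no course over time or dose can be read from them.

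Cells under endoplasmic reticulum stress phosphorylate the initiation factor eIF2α, which slows most translation but favours that of the transcription factor ATF4. ATF4 is known to bind composite C/EBP-ATF sites and to raise transcription of genes for amino acid synthesis and uptake, with ASNS as the classical example. ASNS makes asparagine from aspartate and glutamine, and GLUL makes glutamine. GOT1 moves amino groups between aspartate and glutamate in the cytosol, and GPT2 moves them between alanine and glutamate in mitochondria. ALDH18A1 and PYCR1 carry out the first and the last steps from glutamate to proline, and CBS and CTH turn homocysteine into cysteine.

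Totals ran from 4242538 to 4888292 counts in untreated and from 2234682 to 5029864 counts in tunicamycin libraries, the lowest being tunicamycin replicate 5. Mitochondrial transcripts took 22.7% to 25.2% of counts in untreated and 18.3% to 28.8% in tunicamycin libraries, the highest being tunicamycin replicate 4. As a check on the treatment, HSPA5, the endoplasmic reticulum chaperone BiP, rose by 2.97 ± 0.08 (log2, SE; edgeR's quasi-likelihood test, adjusted p = 1.36e-14), and DDIT3 and TRIB3, both known ATF4 targets, rose by 1.42 and 0.80. The RNA of ATF4 itself was 3597 ± 413 normalized counts in untreated and 3510 ± 449 in tunicamycin libraries (SD, n = 5; log2 fold change -0.03, adjusted p = 0.823). ATF4 is known to be controlled mainly in translation, which RNA counts do not measure. The 7 hepatocyte markers all had counts, with a summed level of 13900 to 17600 CPM (counts scaled to a common total per library) in untreated and 9620 to 11800 in tunicamycin libraries, and APOA1, APOB and TTR were the 3 that fell. Leukocyte, endothelial and fibroblast markers summed to at most 5.05 CPM in any library, and PTPRC, CD3E and COL1A2 had no count. Fewer cells with a transcript and less of it per cell cannot be told apart in such bulk libraries.

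Values below are normalized counts, which are deposited counts divided by the library size after TMM scaling and multiplied by the mean scaled size of the 10 libraries. A log2 fold change is the fitted difference of tunicamycin from untreated libraries, its error is a standard error (SE), and the term called means an adjusted p under 0.05 over all 12733 genes. Of the genes tested, 34.2% were called in either direction, 17.6% higher and 16.6% lower. Of the 8 enzyme genes, ASNS, CTH, GOT1 and PYCR1 were called higher, and for the same 4 the lowest tunicamycin library lay above the highest untreated library. Such a separation was met by 23.5% of all genes in either direction, by 11.7% with tunicamycin higher and by 11.9% with tunicamycin lower. The median log2 fold change was 0.51 over the 8 genes and -0.0033 over all genes tested. Together the 8 genes took 948 ± 44 CPM in untreated and 1334 ± 102 in tunicamycin libraries (SD, n = 5).

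**Figure D1:**
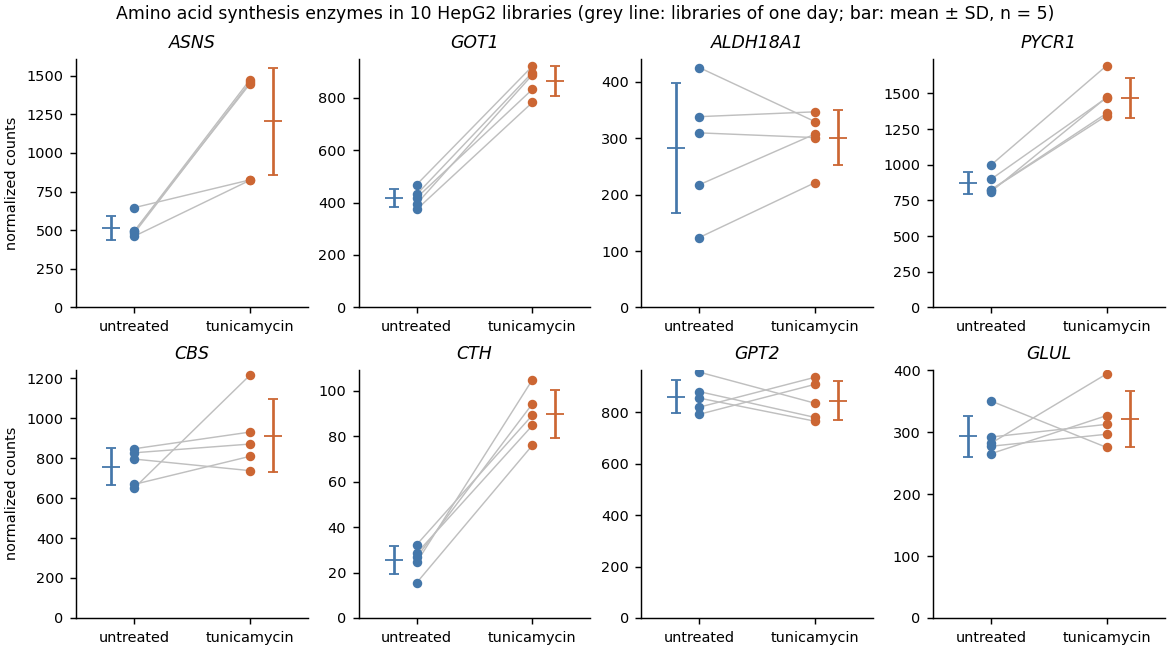
Normalized counts of each of the 8 enzyme genes (vertical axis, from 0) in untreated (blue) and tunicamycin (orange) libraries, with grey lines joining libraries of the same day and bars for mean ± SD of 5 libraries. ASNS, GOT1, PYCR1 and CTH have all tunicamycin points above all untreated points, and CBS, ALDH18A1, GPT2 and GLUL have overlapping points.

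ASNS (ENSG00000070669), asparagine synthetase, lies on the minus strand of chromosome 7 from 97851677 to 97872542 in GRCh38. Its untreated libraries held 491, 460.1, 479, 492 and 645 normalized counts for replicates 1 to 5, and its tunicamycin libraries 1446, 823, 1457, 1473 and 825. Tunicamycin replicates 2 and 5 thus lay far below the other 3 tunicamycin libraries, though still above every untreated one. The means were 514 ± 74.8 and 1205 ± 348 (SD, n = 5), a log2 fold change of 1.23 ± 0.16 (SE), or 2.35-fold (edgeR's quasi-likelihood test, adjusted p = 7.95e-06), which exceeded that of 96.3% of genes tested. Within days the log2 ratio was 1.56, 0.84, 1.6, 1.58 and 0.36. The smallest ratio belonged to replicate 5, where the untreated library was the highest of its group. The coefficient of variation (SD over mean) was 28.9% among tunicamycin libraries, above that of 96.5% of the 484 genes whose mean was within 1.5-fold. Leaving out any 1 library gave log2 fold changes of 1.16 to 1.35, all called higher. A long noncoding RNA, ENSG00000284707, overlaps an exon of ASNS on the same strand in GENCODE and was not analysed here, and reads from the overlap cannot be told apart from those of ASNS.

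GOT1 (ENSG00000120053), cytosolic aspartate aminotransferase, lies on the minus strand of chromosome 10 from 99396870 to 99430624 in GRCh38. It had 468, 418, 395, 374 and 431 normalized counts in untreated and 919.8, 832, 887, 782 and 896 in tunicamycin libraries. The groups stood well apart, and the spread within each was small beside the gap. Means of 417 ± 36.1 and 863 ± 55.9 (SD, n = 5) gave a log2 fold change of 1.05 ± 0.09 (SE), or 2.07-fold (edgeR's quasi-likelihood test, adjusted p = 2.72e-08). Its within-day log2 ratios ran only from 0.97 to 1.17, against 0.36 to 1.6 for ASNS. GOT2, the mitochondrial aspartate aminotransferase, had 552, 529, 480.3, 449 and 495 normalized counts in untreated and 524, 406, 451, 661 and 466 in tunicamycin libraries. Its groups overlapped and its fitted log2 fold change was 0.00 ± 0.12, with a 95% interval of -0.27 to 0.27.

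The promoters of ASNS and GOT1 are shown because both genes were called higher and both have a window with the composite C/EBP-ATF motif. The motif was searched as TGATGNAA on both strands. ASNS had 2 windows, of which only 1 held it, and GOT1 had 1 window. The windows of RefSeq (GRCh38.p14) run from 250 bases before to 50 bases after an annotated start, and 6 of the 8 genes had 10 such windows between them. The stretches below read 5′ to 3′ along the gene's strand, with the motif in capitals. That of ASNS is chr7:97872458-97872487 on the minus strand, with the motif starting 68 bases upstream of the annotated start of its window. That of GOT1 is chr10:99430804-99430833 on the minus strand, with the motif starting 198 bases upstream and reading as TGATGCAA on the opposite strand.
ASNS: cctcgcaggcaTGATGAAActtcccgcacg
GOT1: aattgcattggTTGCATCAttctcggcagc
TGATGNAA was present in 3.62% of the 35116 promoter windows of the table, and its special case TGATGCAA in 0.866%. No match to TGATGNAA was found in the windows of CTH, CBS, ALDH18A1 or GLUL, of which CTH was called higher. PYCR1, also called higher, and GPT2 had no window and were not searched. The letters CCACG, the end of the endoplasmic reticulum stress element, were found 4 times in the windows of CBS, 5 times in ALDH18A1, 2 times in GOT1 and 2 times in GLUL, on either strand, and 38.1% of all windows held them. The full element, in which CCAAT stands before CCACG at a set distance, was in 0.0769% of windows and in none of these genes. A match of letters is a description of the sequence, and binding was not measured in these libraries.

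PYCR1 (ENSG00000183010), a mitochondrial pyrroline-5-carboxylate reductase that makes proline, lies on the minus strand of chromosome 17 from 81932384 to 81942412 in GRCh38. Its range overlapped that of GPT2 in untreated and that of ASNS in tunicamycin libraries, but the mean of PYCR1 was the highest of the 8 in both conditions. Untreated libraries had 998, 899, 811, 824 and 825 normalized counts and tunicamycin libraries 1696, 1471, 1474, 1345 and 1362. Replicate 1 was the highest library in both conditions, and the groups did not overlap. From 872 ± 78.9 to 1469 ± 140.0 (SD, n = 5), the log2 fold change was 0.75 ± 0.09 (SE), or 1.69-fold (edgeR's quasi-likelihood test, adjusted p = 3.19e-06). The 5 within-day log2 ratios lay between 0.71 and 0.86, the narrowest range of the 4 genes called higher. MYADML2, which overlaps an exon of PYCR1 on the same strand, had 1 count over all 10 libraries.

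ALDH18A1 (ENSG00000059573), which makes pyrroline-5-carboxylate from glutamate and so supplies PYCR1, lies on the minus strand of chromosome 10 from 95605941 to 95656711 in GRCh38. Its normalized counts were 124, 218, 309.7, 426 and 338 in untreated and 221, 308, 301, 329.7 and 347 in tunicamycin libraries. The groups overlapped widely, and replicate 1 was the lowest library of each. Means of 283 ± 116 and 301 ± 48.3 (SD, n = 5) gave a log2 fold change of 0.08 ± 0.22 (SE), with a 95% interval of -0.42 to 0.59 (edgeR's quasi-likelihood test, adjusted p = 0.806). The interval leaves room for a change of either sign. Within days the log2 ratio ran from 0.83 in replicate 1 to -0.37 in replicate 4. The coefficient of variation among untreated libraries was 40.9%, above that of 99.6% of the 1939 genes with a mean within 1.5-fold, whose median was 10.6%.

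The proline list, which includes PYCR1 and ALDH18A1, showed changes of both signs. Of its 11 genes, all tested, 3 were called higher (27.3%, against 17.6% of all genes) and 2 lower (18.2%, against 16.6%), with a median log2 fold change of 0.09. OAT, which makes the proline precursor from ornithine, had 10.3, 42.8, 60.4, 79.7 and 75.2 normalized counts in untreated and 53.2, 120.1, 143, 162 and 184 in tunicamycin libraries (log2 fold change 1.27 ± 0.35, SE). OAT overlapped between the groups, since tunicamycin replicate 1 lay below 3 of the untreated libraries, but every day gave a higher value with tunicamycin. The genes called lower both act in breakdown: ALDH4A1, which turns pyrroline-5-carboxylate into glutamate, fell by 0.58 ± 0.10, and PRODH2, a hydroxyproline dehydrogenase, by 0.40 ± 0.12. PRODH, proline dehydrogenase, was at 3.57 ± 2.87 normalized counts in untreated and 7.25 ± 2.34 in tunicamycin libraries and was not called. PYCRL, a relative of PYCR1, had 32.2 ± 2.54 and 29.9 ± 5.23, with no call.

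**Figure D2:**
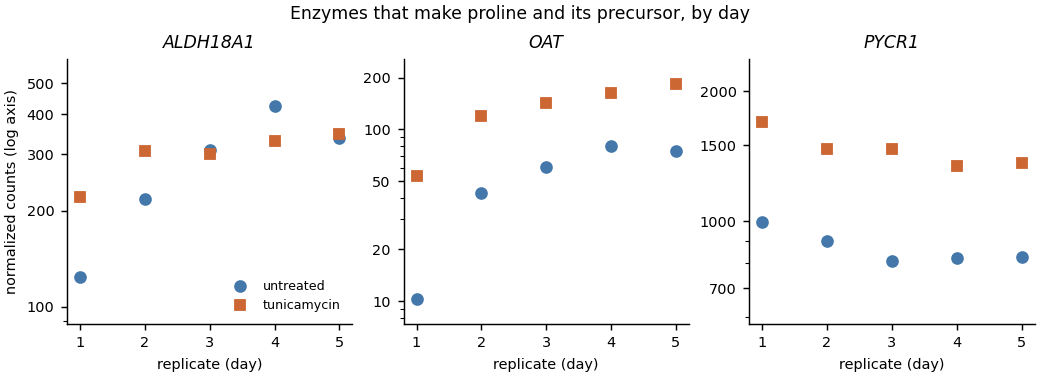
Normalized counts (log axis, a separate range for each gene) of ALDH18A1, OAT and PYCR1 by replicate, where each replicate number is a day, in untreated (circles) and tunicamycin (squares) libraries. ALDH18A1 and OAT are lowest in replicate 1 in both conditions, PYCR1 is highest there, and every day has more OAT and PYCR1 with tunicamycin.

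The low values of replicate 1 were shared by several of these genes. ALDH18A1 and OAT were lowest on that day in both conditions. So were CTH and several other genes of the lists, PSAT1 and AHCY among them. Among untreated libraries the coefficient of variation was 52.6% for OAT and 28.3% for PSAT1, each above that of at least 98.3% of genes at a like level. PYCR1 and GOT1 were highest on that day in both conditions. The correlation across genes of the deviations of the 2 libraries of a day from their group means was largest for replicate 1, at 0.361. With both libraries of replicate 1 left out, a choice made after seeing these values, the log2 fold change of ALDH18A1 was -0.0055 ± 0.14 and that of OAT was 1.22 ± 0.17. A planned fit that pairs the libraries of each day gave 0.17 ± 0.13 for ALDH18A1 (adjusted p = 0.296 in edgeR's test). The same fit gave 1.37 for OAT (adjusted p = 2.58e-07 in edgeR's test). What differed on the day of replicate 1 was not tested.

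CTH (ENSG00000116761), cystathionine gamma-lyase, which releases cysteine from cystathionine, lies on the plus strand of chromosome 1 from 70411218 to 70439851 in GRCh38. It was the least abundant of the 8 transcripts and had the largest fold change among them. Untreated libraries had 15.5, 26.8, 24.5, 32.3 and 28.5 normalized counts, from 18 to 36 counts as deposited, and tunicamycin libraries 76.0, 94.3, 105, 89.3 and 84.7, from 42 to 111 counts. Every tunicamycin library was above every untreated library by more than the whole range of the untreated group. The means were 25.5 ± 6.27 and 89.8 ± 10.8 (SD, n = 5), a log2 fold change of 1.82 ± 0.18 (SE), or 3.53-fold (edgeR's quasi-likelihood test, adjusted p = 3.61e-07), above that of 98.7% of genes tested. Within days the log2 ratios were 2.26, 1.80, 2.08, 1.46 and 1.57.

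CBS (ENSG00000160200), cystathionine beta-synthase, which joins homocysteine and serine in the step before CTH, lies on the minus strand of chromosome 21 from 43053191 to 43076943 in GRCh38. It had 795, 827, 668, 649.6 and 847 normalized counts in untreated and 737, 870.3, 809, 1214 and 930.2 in tunicamycin libraries. Tunicamycin replicate 4 was the highest and the groups overlapped. With means of 757 ± 91.9 and 912 ± 184 (SD, n = 5), the log2 fold change was 0.27 ± 0.12 (SE), its 95% interval was -0.01 to 0.54, and it was not called (edgeR's quasi-likelihood test, adjusted p = 0.096). Within days the log2 ratio was positive in 4 of 5, from -0.11 in replicate 1 to 0.90 in replicate 4. Without tunicamycin replicate 4 the log2 fold change was 0.15, with an adjusted p of 0.31 in edgeR's test. The call depended on replicate 1: without its tunicamycin library the log2 fold change was 0.33 with an adjusted p of 0.03 in edgeR's test, and without both its libraries 0.36 with an adjusted p of 0.0167. Over all libraries left out in turn, the adjusted p was 0.03 to 0.31. The same tunicamycin replicate 4 had the highest share of mitochondrial counts of all libraries. It also had the highest tunicamycin values of GOT2, at 661, and GLUL, at 394. The part of that library's make-up in these values was not tested.

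Around these 2 enzymes, the list for methionine, transsulfuration, cysteine and glutathione had 25 genes tested, of which 5 were called higher and 4 lower, a share of 20% and 16% against 17.6% and 16.6% of all genes. Its median log2 fold change was 0.03. Besides CTH, the genes called higher were GCLC and GCLM, the catalytic and modifier subunits of the enzyme that starts glutathione synthesis, at 1.11 ± 0.12 and 0.78 ± 0.12 (log2, SE), MAT2B, a regulatory subunit of methionine adenosyltransferase, at 0.69 ± 0.17, and AHCY, which releases homocysteine, at 0.61 ± 0.16. GSS, which adds glycine in the last step to glutathione, had 192 ± 25.2 and 156 ± 35.0 normalized counts and was not called. Among the genes called lower, BHMT, which returns homocysteine to methionine, went from 8 to 27 counts per untreated library to 0 to 2 counts per tunicamycin library (log2 fold change -3.32 ± 0.55). MAT1A, the methionine adenosyltransferase of adult liver, fell by 0.63 ± 0.09. CSAD, which leads from cysteine to taurine, and OPLAH, which recovers glutamate from 5-oxoproline, fell by 0.99 and 0.49, with groups that overlapped. The call of CSAD was lost without untreated replicates 1 or 5 or tunicamycin replicates 2, 3 or 4 (adjusted p up to 0.106 in edgeR's test, log2 fold change -1.20 to -0.77 with 1 library left out), and that of OPLAH without untreated replicates 1, 2, 4 or 5 or tunicamycin replicates 2 or 3 (up to 0.0996, -0.57 to -0.40). CHAC1, a glutathione-degrading enzyme, had no count in any library.

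GPT2 (ENSG00000166123), mitochondrial alanine aminotransferase, lies on the plus strand of chromosome 16 from 46884362 to 46931289 in GRCh38. Its libraries had 957, 856, 821, 793 and 881 normalized counts when untreated and 836, 766, 937, 909 and 781 with tunicamycin. The 2 groups covered nearly the same range. Means of 862 ± 63.1 and 846 ± 75.9 (SD, n = 5) gave a log2 fold change of -0.03 ± 0.09 (SE), with a 95% interval of -0.22 to 0.17 (edgeR's quasi-likelihood test, adjusted p = 0.848). A change as large as that of PYCR1 lies outside this interval. GPT, the cytosolic alanine aminotransferase, was scarce, with 1 to 15 counts per untreated and 2 to 7 per tunicamycin library.

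GLUL (ENSG00000135821), glutamine synthetase, lies on the minus strand of chromosome 1 from 182378098 to 182392206 in GRCh38. Normalized counts were 350.3, 277, 292, 282 and 265 in untreated and 275, 297, 313, 394 and 327 in tunicamycin libraries. Replicate 1 was the highest untreated and the lowest tunicamycin library, and the groups overlapped. The means, 293 ± 33.2 and 321 ± 45.1 (SD, n = 5), gave a log2 fold change of 0.12 ± 0.11 (SE), with a 95% interval of -0.13 to 0.38 (edgeR's quasi-likelihood test, adjusted p = 0.41). The value for GLUL was 0.04 without tunicamycin replicate 4, 0.19 without untreated replicate 1 and 0.25 without both libraries of replicate 1 (adjusted p = 0.0587 in edgeR's test), with no call in any of these.

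The list for glutamine, glutamate and transaminases had 25 genes tested, with 5 called higher, 4 lower and a median log2 fold change of -0.09. These shares, 20% and 16%, were near those of all genes, 17.6% and 16.6%. Apart from GOT1, the genes called higher included GFPT1, which uses glutamine to make the hexosamine precursor of N-glycans, at 1.84 ± 0.09 (log2, SE), BCAT1, the cytosolic branched-chain aminotransferase, at 1.71 ± 0.13, and PSAT1, the aminotransferase of serine synthesis, at 1.16 ± 0.16. PSAT1 had 691 ± 195 normalized counts in untreated and 1544 ± 194 in tunicamycin libraries, a level near that of PYCR1. The genes called lower were AGXT, the alanine-glyoxylate aminotransferase of liver peroxisomes, at -1.0 ± 0.21, ABAT, which breaks down GABA, at -0.90 ± 0.12, CTPS2, which makes CTP with glutamine as the donor of nitrogen, at -0.53 ± 0.18, and GMPS, which makes GMP with glutamine, at -0.39 ± 0.15. With 1 library left out, CTPS2 lost its call without untreated replicates 1 or 3 or tunicamycin replicate 1 (adjusted p up to 0.069 in edgeR's test, log2 fold change -0.64 to -0.44), and GMPS without any untreated replicate but 5 or tunicamycin replicates 3, 4 or 5 (up to 0.123, -0.50 to -0.28). In the asparagine and aspartate list, 3 of 9 genes tested were called higher (33.3%, against 17.6% of all genes) and 2 lower (22.2%, against 16.6%), with a median of 0.26. ASNSD1, a relative of ASNS with no settled role in asparagine synthesis, was higher by 0.48 ± 0.17 with overlapping groups, a call lost without untreated replicates 2, 4 or 5 or tunicamycin replicates 4 or 5 (adjusted p up to 0.0977 in edgeR's test, log2 fold change 0.39 to 0.58). ASRGL1, which splits asparagine into aspartate and ammonia, fell by 0.71 ± 0.10, from 672 ± 41.0 to 411 ± 54.0 normalized counts without overlap, and NAT8L, which acetylates aspartate, by 0.83 ± 0.23. The call of NAT8L held with any 1 library left out and was lost without both libraries of replicate 1 (log2 fold change -0.63, adjusted p = 0.0521 in edgeR's test).

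**Figure D3:**
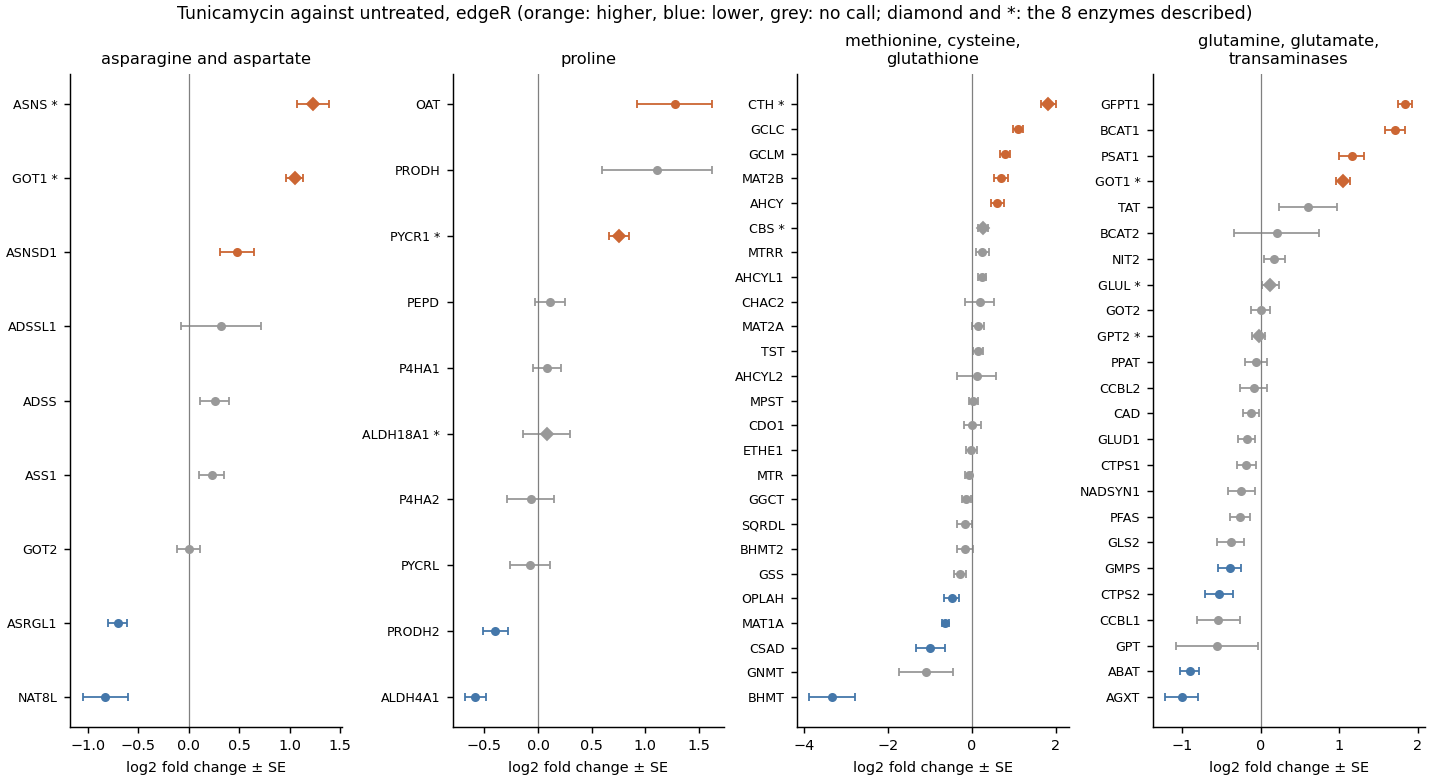
Log2 fold change (tunicamycin against untreated, ± SE, horizontal axis with a separate range for each list) of the tested genes reported from the 4 pathway lists, in orange where called higher, blue where called lower and grey where not called, with diamonds and asterisks for the 8 enzyme genes. Each list holds calls of both signs, from -3.32 for BHMT to 1.84 for GFPT1.

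Since a 3′ library gives about 1 fragment per transcript whatever its length, levels of the 8 genes were also compared with each other as normalized counts. In untreated cells the order of means was PYCR1, GPT2, CBS, ASNS, GOT1, GLUL, ALDH18A1 and CTH. The ranges of neighbours overlapped for PYCR1 and GPT2, GPT2 and CBS, ASNS and GOT1, and GLUL and ALDH18A1, and did not for the other neighbours. Within untreated libraries, GPT2 was above CBS and ASNS above GOT1 in all 5, PYCR1 above GPT2 in 3, and GLUL above ALDH18A1 in 2. With tunicamycin the order of means was PYCR1, ASNS, CBS, GOT1, GPT2, GLUL, ALDH18A1 and CTH. The first 5 overlapped each with the next, as did GLUL and ALDH18A1, while GPT2 and GLUL were apart. Within tunicamycin libraries, PYCR1 was above ASNS in 4 of 5. ASNS was above CBS, CBS above GOT1, GOT1 above GPT2 and GLUL above ALDH18A1 in 3 of 5 each. As a share of the summed counts of the 8 genes, ASNS made up 12.7% in untreated and 19.8% in tunicamycin cells, and GPT2 21.4% and 14.1%. PYCR1 held 21.7% and 24.6%, and CTH 0.637% and 1.5%.

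**Figure D4:**
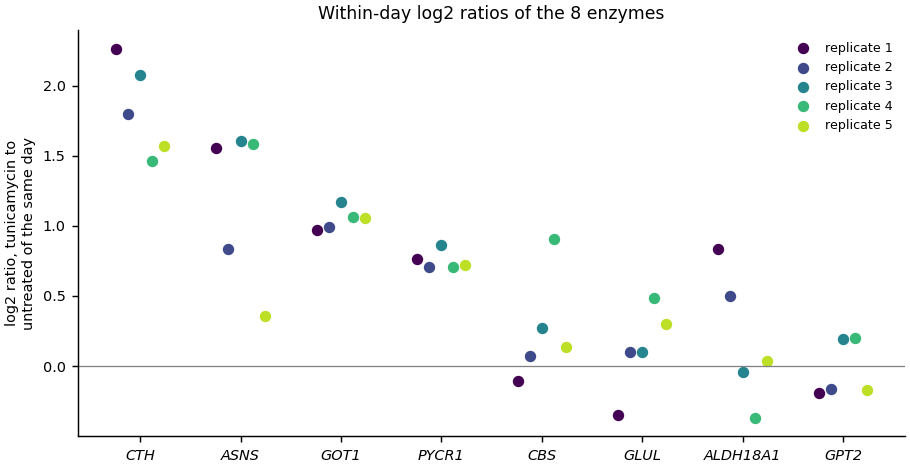
Log2 ratio of the tunicamycin to the untreated library of the same day (vertical axis) for each of the 8 enzyme genes, with 1 point per replicate. All 5 points lie above 0 for CTH, ASNS, GOT1 and PYCR1, those of PYCR1 span 0.71 to 0.86 while those of ASNS span 0.36 to 1.6, and CBS, GLUL, ALDH18A1 and GPT2 have points on both sides of 0.

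Ratios of 2 genes within a library do not depend on how libraries are scaled, and 7 pairs of enzymes that share a reaction, a pathway or a substrate were compared by an exact two-sided permutation test of 5 against 5 libraries, whose smallest p is 0.00794. The values of 5 pairs are given. In 4 pairs the groups did not overlap and the exact p was at that smallest value, or 0.0139 after Benjamini-Hochberg adjustment over all 7. The ratio of GOT1 to GOT2 went from 0.833 in untreated to 1.74 in tunicamycin libraries (log2 difference 1.07), that of CTH to CBS from 0.0335 to 0.100 (1.58) and that of ASNS to GLUL from 1.74 to 3.64 (1.06). For ASNS to GLUL the gap was narrow, with a highest untreated log2 ratio of 1.28 and a lowest tunicamycin one of 1.33. The ratio of ALDH18A1 to OAT, the 2 enzymes that supply the precursor of proline, went from 5.89 to 2.43 (-1.27). Each of these 4 pairs set a gene called higher against one not called, so the ratios largely restate those calls. The pairs were chosen with earlier results of these data known. All 5 days moved the same way in each of these 4 pairs, and an exact sign-flip test within days, which cannot go below p = 0.0625 with 5 days, gave an adjusted p of 0.0875 for each. The ratio of GPT2 to GPT overlapped between the groups, at 138 and 159 (log2 difference 0.21, exact permutation p = 0.722, adjusted 0.722), with few counts of GPT.

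**Figure D5:**
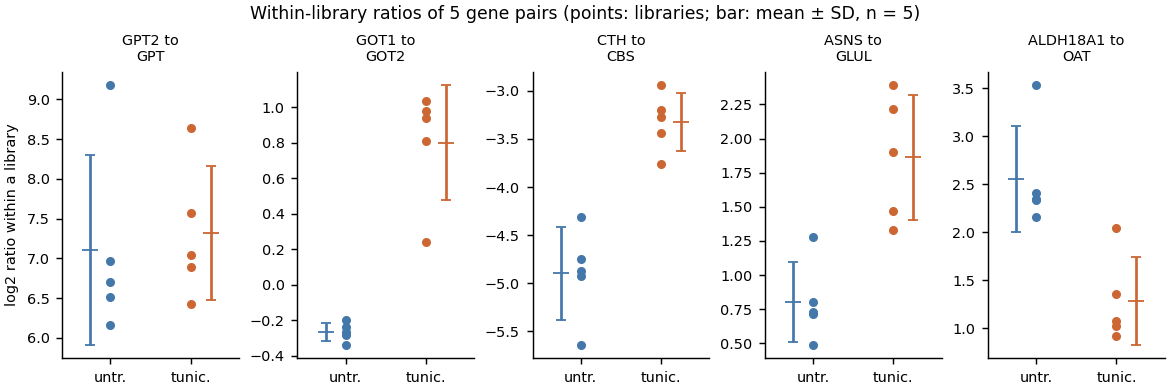
Log2 ratio of normalized counts of 2 genes within each library (vertical axis, a separate range for each pair) for 5 pairs, with untreated libraries in blue, tunicamycin libraries in orange and bars for mean ± SD of 5 libraries. The groups are apart for GOT1 to GOT2, CTH to CBS, ASNS to GLUL and ALDH18A1 to OAT, and overlap for GPT2 to GPT.

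For each enzyme gene, the gene whose log2 CPM ran most like it over the 10 libraries was found among 9706 others with at least 20 normalized counts on average. These values of Pearson's r describe the same 10 libraries, share their depth and the difference between conditions, and carry no p. For ASNS the 3 highest were SLC18B1 (0.969), ATP6V0A2 (0.952) and TRIB3 (0.950). Picked for their likeness to ASNS in these libraries, all 3 had lower values in tunicamycin replicates 2 and 5 than in the other tunicamycin libraries, as ASNS did. TRIB3 had 776 and 734 normalized counts there against 844 to 872 in the other 3, and SLC18B1 had 57.6 and 62.6 against 82.8 to 106. ALDH18A1 ran most like SULT1A1, a sulfotransferase (0.979), which had 169 normalized counts in untreated replicate 1 and 283 to 504 in the other untreated libraries. The nearest genes were CLPTM1L for CTH (0.995), EPB41L4A-AS1 for GOT1 (0.993), SYNE1 for PYCR1 (0.992), BRPF1 for CBS (0.975), PHB2 for GPT2 (0.924) and VAMP2 for GLUL (0.913). Picked in the same way, BRPF1, like CBS, and VAMP2, like GLUL, were at their highest in tunicamycin replicate 4, at 149.7 and 125 normalized counts.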

How the data were processed

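HepG2 RNA was sequenced by the authors as QuantSeq 3′ FWD libraries, mapped to hg19 and counted with Ensembl gene definitions in the nf-core RNA-Seq pipeline; the strand setting is not given in the sources used here. The deposited values are raw counts per gene, without normalization. All sample columns were used. Genes were filtered with filterByExpr (minimum count 2, minimum total 10), scaled by TMM and fitted on condition alone in edgeR 4.0.16 (R 4.3.3), whose quasi-likelihood test gave the p-values, with Benjamini-Hochberg adjustment at 0.05. A standard error is the log2 fold change over the square root of its F. Intervals use the t distribution with degrees of freedom from the libraries alone. The quasi-likelihood test adds some drawn from the other genes, so the intervals are wider than that test implies. Within-library ratios (pseudocount 0.5) were tested with SciPy 1.17.1. The script was tested on simulated data. The enzymes, pathway lists, marker lists, pairs and motifs were chosen with earlier results of these data known. Named genes are those of the lists, and the nearest by correlation. Days pair the libraries, as the series states, and the correlations of their deviations over 9707 genes were 0.361, 0.0153, 0.0674, 0.165 and 0.145. Totals of 2234682 to 5029864 counts limit genes with few counts, such as GPT. Gene positions come from GENCODE on GRCh38, matched by Ensembl identifier. Of the listed genes, ASPG, ASPA, CHAC1, GLUD2 and AGXT2 fell below the filter, KYAT1 is in the table under its older name, CCBL1, and PECAM1 was not used here. Results for some genes and pairs of the lists are not reported here, though the lists' counts and the adjustment over pairs include them. Alternatives were DESeq2 1.42.0 and its size factors, library size only, other filters, the replicate block, thinning, a pseudocount of 2 and leaving out libraries.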

Additional observations from a re-analysis of the deposited data

Results flagged for a closer look

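Of 84 groups of 5 libraries examined, 5 had a library far from the other 4, where about 4.2 would be met by chance (about 1 in 20 groups). ASNS in untreated replicate 5 had 645 normalized counts, against 460.1 to 492 in the other untreated libraries. OPLAH in untreated replicate 3 had 42.0 normalized counts, against 58.9 to 62.8. The log2 ratio of GPT2 to GPT in untreated replicate 5 was 9.18, against 6.17 to 6.97, with 1 count of GPT in that library. The log2 ratio of GOT1 to GOT2 in tunicamycin replicate 4 was 0.24, against 0.81 to 1.03, and GOT2 was at its highest there. The log2 ratio of ALDH18A1 to OAT in untreated replicate 1 was 3.53, against 2.16 to 2.41, with 12 counts of OAT. No cause was tested.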

How the results depend on the processing

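ASNS, CTH, GOT1 and PYCR1 were called higher under all 7 settings other than the main one and with each of the 10 libraries left out, with 4 to 5 of the 8 enzyme genes called, the fifth being CBS without tunicamycin replicate 1. With the replicate block, which pairs the libraries of a day, no call among the enzyme genes changed (CBS adjusted p = 0.0622 in edgeR's test), and all genes gave 2499 higher and 2312 lower. Each blocked ratio test has a smallest exact p of 0.0625, so GOT1 to GOT2 (1.07), CTH to CBS (1.58), ASNS to GLUL (1.06) and ALDH18A1 to OAT (-1.27) could not pass there. Scaled by library size only, 40.8% of calls were higher against 51.4% with TMM, the median log2 fold change was -0.0829, and the glutamine list had 7 genes lower. Leaving out 1 library gave 2 to 4 lower in the methionine list (2 without untreated replicates 1 or 5 or tunicamycin replicates 2 or 3), 2 to 5 lower in the glutamine list (2 without untreated replicates 1 or 3), and -0.12 to 0.73 for GPT2 to GPT, which was -0.03 without untreated replicate 1 and -0.12 without tunicamycin replicate 3. Without both libraries of replicate 1, chosen after seeing the data, the asparagine list had 1 lower (NAT8L lost its call) and the methionine list 2. Signs turned only in genes with no call: ALDH18A1 was -0.0355 when thinned, -0.11 to 0.29 with 1 library left out (-0.11 without untreated replicate 1) and -0.0055 without both replicate 1 libraries, GPT2 -0.0652 to 0.0159 (0.0151 without untreated replicate 1, 0.0159 without tunicamycin replicate 2) and 0.0276 without both, and ATF4 -0.0915 to 0.0388 (0.0353 without untreated replicate 1, 0.0388 without tunicamycin replicate 4). Calls lost with 1 library left out were those of GMPS (7 of 10), OPLAH (6), ASNSD1 and CSAD (5 each) and CTPS2 (3). The causes were not tested.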
